A study of Homo sapiens with 10 samples.

Results

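Kinesins are motor proteins that walk along microtubules or shorten their ends, and their messenger RNAs were compared here between K562 cells and the microvesicles that these cells release. K562 is an established human chronic myeloid leukaemia line with erythroid features and the BCR-ABL1 fusion gene, and microvesicles are membrane-bound particles shed into the medium. Both groups come from this 1 line without a further treatment in the labels, 5 arrays each, from 5 independent experiments, with RNA isolated by Trizol. The kinesins were taken by name, as every gene whose symbol in the platform annotation is KIF or KIFC followed by a number, and each was read from its brightest probe set over the 10 arrays. This gave 41 genes with 85 probe sets. The deposited values held 54630 probe sets, and those with exactly 1 gene symbol covered 19775 genes. The naming rule itself uses no measured value, but the members and lists were chosen with earlier results of these data known. The labels name no method by which the vesicles were isolated. Of these 41, 12 known mitotic kinesins were listed (KIF2C, KIF4A, KIF11, KIF14, KIF15, KIF18A, KIF18B, KIF20A, KIF20B, KIF22, KIF23 and KIFC1), and they were set against the other 29. This list alone sets the classes, and a place among the 29 does not mean that a gene has no part in mitosis. KIF2A (-1.63, lower) and KIF2B (0.22, not passed), of the same family as KIF2C, were counted among the 29.

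Kinesins share a motor domain that couples ATP hydrolysis to movement on the microtubule, and they differ in the parts that bind cargo. Mitotic kinesins separate the spindle poles, move and align chromosomes and build the midzone where the cell divides, and in proliferating cells their mRNAs are made mainly in the G2 and M phases of the cell cycle. Most other kinesins carry vesicles, organelles, protein complexes or mRNA outward from the cell centre, or serve the cilium, and several of them are best known from neurons.

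The values are log2 expression values made by RMA, so a difference of 1 is a 2-fold change. They carry no detection call, and the brightness of different probe sets is not a measure of which gene is more abundant. Of 12 erythroid and fusion-partner markers of K562, 10 were measured and all 10 lay above the median of the arrays in both groups, with GATA1 at 7.06 in cells and 6.45 in microvesicles. Of 9 markers of other blood cells, 2 lay above it in cells and 3 in microvesicles. By limma at the threshold given below 4 of the 10 K562 markers were lower in microvesicles and 1 higher, with a median change of -0.52, where 31.2% of all genes were lower. TFRC changed most of them, by -1.63. Of the 9 other markers 6 were higher in microvesicles, with a median change of 0.55. Of all genes 35.5% were higher. All genes with a mean level of 3 to 4 had a median change of 0.61, and those of 4 to 5 had 0.53. Among the 6 markers that rose, CD3E changed by 0.90, MS4A1 by 0.87 and S100A12 by 0.72. The T cell gene CD3D, by far the brightest of the 9 at 8.18 and 8.01, did not pass. After loess normalization, described below, 2 of the 9 were higher, where 26.9% of all genes were. Of the K562 markers 1 was then lower and 3 higher, where 18.3% of all genes were lower. The ACTB controls read the 3' and the 5' end of 1 mRNA, and their difference, which grows as RNA is shortened, ran from 2.26 to 2.57 in cells and from 2.72 to 3.64 in microvesicles (exact permutation test of group means, 2-sided, p = 0.00794, the smallest that 5 against 5 arrays allow, adjusted p = 0.0106 over 4 measures). The part of either in the results below was not tested. The summed level of the 9 blood cell markers, 8.23 to 9.09 in cells and 8.2 to 9.25 in microvesicles on the log2 scale, is carried by CD3D and does not show the 6 that rose.

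All 12 mitotic kinesins were lower in microvesicles than in cells, with changes between -3.03 and -0.96 on the log2 scale and a median of -2.20. The 29 other kinesins went both ways, with 9 lower, 8 higher and 12 that did not pass the test, and a median change of -0.021. The threshold was an adjusted p of 0.05 by limma, 2-sided, with Benjamini-Hochberg adjustment over all 19775 genes. In that fit 31.2% of all genes were lower and 35.5% higher, 66.6% in all, and the median change over all genes was 0.20. Of the mitotic kinesins 11 fell at least 2-fold, against 19.8% of all genes, and of the other kinesins 6 did and 4 rose as much, against 11.2%. With the mean of each gene's probe sets 1 other kinesin, KIF6, rose at least 2-fold. The values of microvesicles and cells did not overlap for 11 of the 12 mitotic kinesins, where 26.1% of all genes lay wholly lower and 23.8% wholly higher. In bulk RNA a transcript that fewer vesicles carry and one that each vesicle carries less of cannot be told apart. Likewise, a level in the cell samples does not separate the share of cells in mitosis from the RNA per cell.

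**Figure D1:**
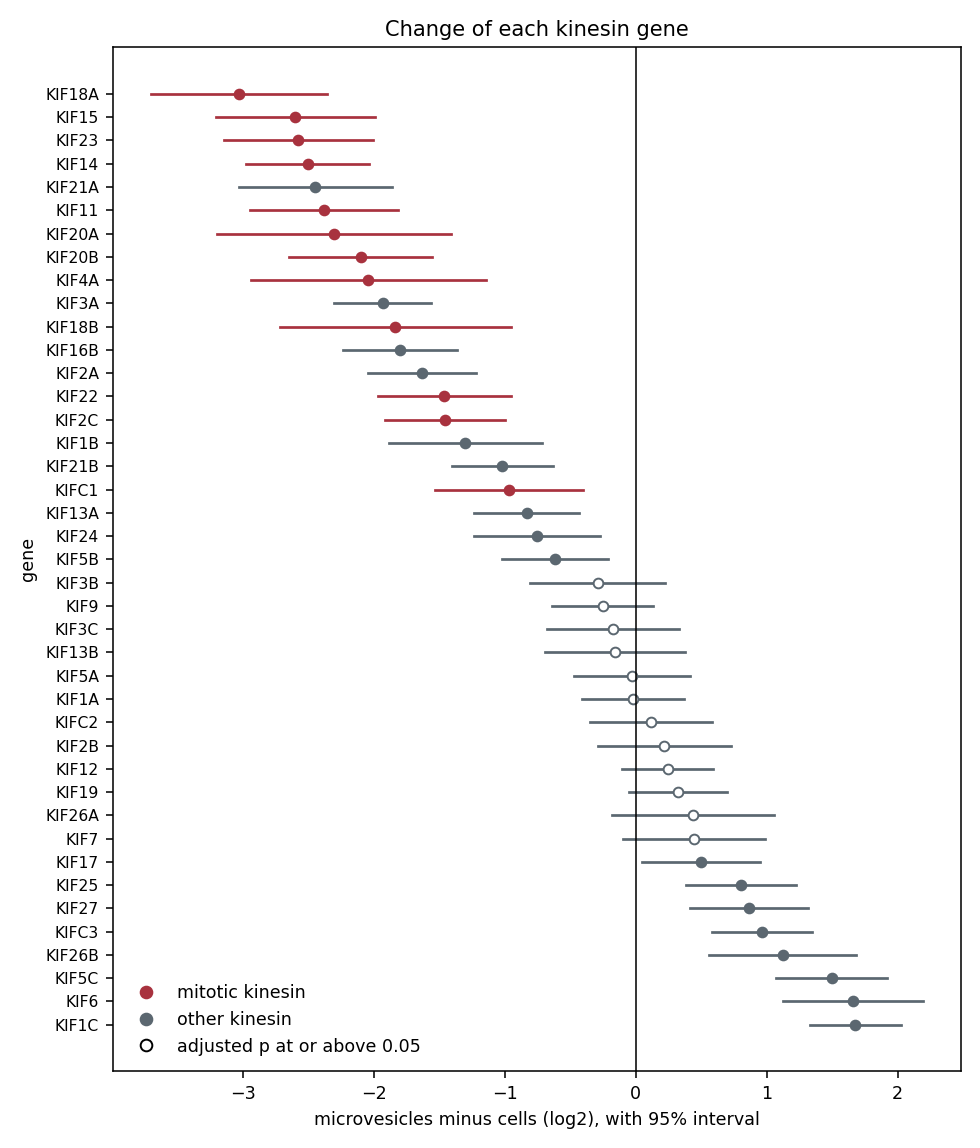
Change of each of the 41 kinesin genes, microvesicles minus cells on the log2 scale (x axis), with its 95% interval from limma. Red marks the 12 mitotic kinesins and grey the 29 others, and open points did not pass an adjusted p of 0.05. All red points lie left of 0, and grey points lie on both sides.

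Among motors that align chromosomes, KIF18A, which dampens the swings of chromosomes at the spindle equator, changed most. KIF18A read 6.64, 7.11, 7.07, 6.67 and 6.62 in cells replicates 1 to 5 and 2.97, 4.28, 4.84, 3.12 and 3.73 in microvesicles replicates 1 to 5. Every microvesicle value lay below every cell value, by 1.77 or more. The change was -3.03 ± 0.31 (SE, n = 5 per group, limma adjusted p = 5.02e-06), 8.16-fold lower. In microvesicles 3 of its 5 values lay under the array median, so its size there is uncertain. KIF22, a chromokinesin that pushes chromosome arms away from the poles, ran from 7.17 to 7.30 in cells and 5.14 to 6.66 in microvesicles, a change of -1.46 ± 0.24 (limma adjusted p = 0.000184). KIF2C, which strips microtubules from wrongly attached kinetochores, had means ± SD of 9.46 ± 0.054 and 8.01 ± 0.48 over 5 cell and 5 microvesicle arrays, a change of -1.46 ± 0.21 (limma adjusted p = 7.83e-05). KIF18B, which shortens the astral microtubules that reach the cell cortex, was 7.40, 6.03, 6.81, 4.70 and 7.34 in microvesicles replicates 1 to 5 against 8.14 to 8.40 in cells. Its replicate 4 was far under the rest, and its change of -1.84 ± 0.41 (limma adjusted p = 0.00177) had an interval of -2.72 to -0.96.

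Motors that set up the spindle fell as well. KIF11, also called Eg5, pushes the spindle poles apart and is the target of several antimitotic compounds. It read 8.16, 8.38, 8.27, 8.26 and 8.14 in cells and 6.66, 5.91, 6.17, 5.66 and 4.91 in microvesicles, replicates 1 to 5. The groups lay well apart, and the change was -2.38 ± 0.26 (5.21-fold lower, limma adjusted p = 8.32e-06). KIF15, which can take over the work of KIF11, read 6.67, 6.78, 6.75, 6.40 and 6.66 in cells and 4.5, 3.37, 4.11, 3.33 and 4.96 in microvesicles. Its change was -2.60 ± 0.28 (limma adjusted p = 7.51e-06), and 3 of its 5 microvesicle values were under the array median. KIFC1, a minus-end motor that focuses spindle poles and clusters extra centrosomes, showed the least change of the 12. KIFC1 read 7.43, 7.55, 7.62, 7.76 and 7.32 in cells and 6.42, 6.66, 6.54, 5.72 and 7.51 in microvesicles, so microvesicles replicate 5 fell inside the range of the cells. Its change was -0.96 ± 0.26 (limma adjusted p = 0.00609).

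The motors of the midzone and of cytokinesis were lower in every microvesicle array than in any cell array. KIF23 is the motor of centralspindlin, the complex it forms with RACGAP1, and ran from 7.91 to 8.03 in cells and 4.44 to 6.13 in microvesicles (change -2.58 ± 0.26, limma adjusted p = 4.8e-06). KIF14, which acts with citron kinase and PRC1 in cytokinesis, read 8.73, 8.96, 8.81, 8.91 and 8.92 in cells and 6.63, 5.52, 6.66, 6.26 and 6.73 in microvesicles. That is a change of -2.51 ± 0.22 (5.68-fold lower, limma adjusted p = 1.46e-06). KIF20A, which carries the chromosomal passenger complex to the midzone, read 8.17, 8.16, 8.15, 8.53 and 8.36 in cells and 7.28, 4.45, 6.47, 5.19 and 6.46 in microvesicles. The microvesicle arrays spread over 2.83 on the log2 scale, with replicates 2 and 4 lowest, and the change was -2.30 ± 0.42 (limma adjusted p = 0.000403). KIF4A, which limits midzone length with PRC1, read 7.57, 7.55, 7.41, 7.76 and 7.48 in cells and 6.06, 5.45, 6.29, 3.55 and 6.19 in microvesicles. Its replicate 4 again stood lowest, and its change was -2.04 ± 0.42 (limma adjusted p = 0.000958). KIF20B, a motor of late cytokinesis, changed by -2.10 ± 0.26 (limma adjusted p = 1.84e-05) in its brightest probe set, with 7.28 to 7.82 in cells and 4.93 to 6.31 in microvesicles. It was the one gene of this group that was highest in microvesicles replicate 4.

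**Figure D2:**
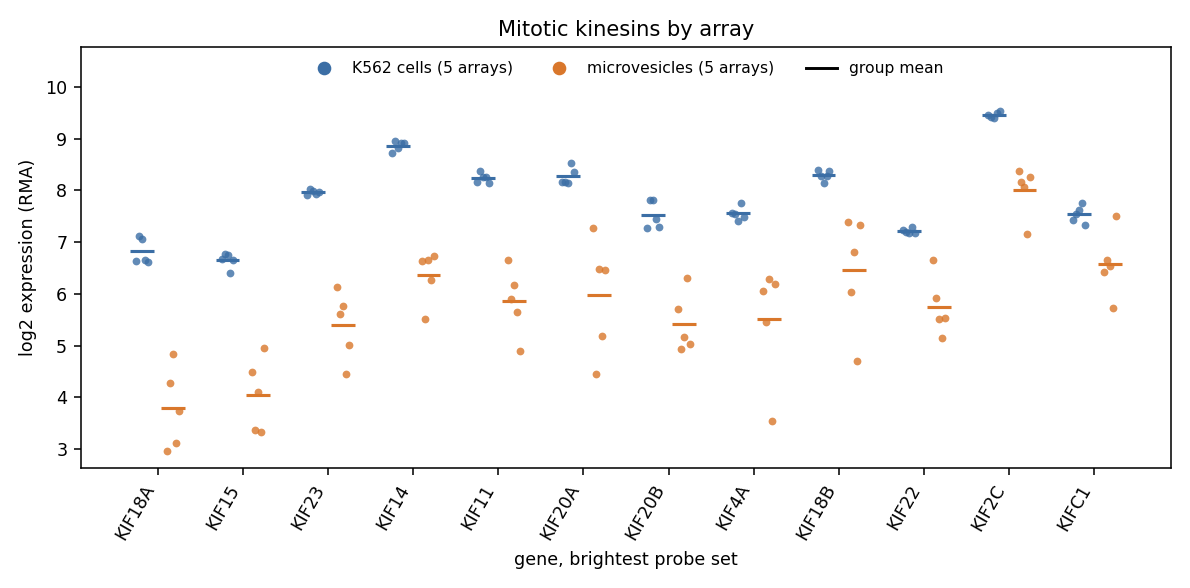
Log2 expression (y axis) of the 12 mitotic kinesins in each of 5 cell arrays (blue) and 5 microvesicle arrays (orange), with horizontal lines for group means. Every orange point lies below the blue points of the same gene except for 1 point of KIFC1, and the orange points spread wider than the blue ones.

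Microvesicle preparations differed among themselves in the mitotic kinesins. The median SD of a mitotic kinesin was 0.12 in cells and 0.66 in microvesicles, against 0.14 and 0.42 for the other kinesins and 0.15 and 0.45 for all genes, a difference given without a test. The mean over the 12 genes was 7.80, 7.94, 7.88, 7.89 and 7.82 in cells replicates 1 to 5 and 6.23, 5.53, 6.04, 5.05 and 5.97 in microvesicles replicates 1 to 5. Microvesicles replicate 4 was the lowest microvesicle array for 7 of the 12 genes and replicate 2 for 3, while replicate 1 was the highest for 6. Replicate 4 also had the largest 3' minus 5' difference of ACTB, 3.64, and of GAPDH, 0.83, and replicate 1 the smallest of the microvesicles, 2.72 and 0.50. Microvesicles replicate 2, with the next lowest mean of 5.53, had an ACTB difference of 2.93, under replicates 3 (3.20) and 5 (3.13). Its GAPDH difference of 0.64 was above theirs, 0.57 and 0.54. The part of RNA integrity in this spread was not tested. The mean over the 29 other kinesins ran from 5.58 to 5.83 in microvesicles and from 5.76 to 5.83 in cells. Without microvesicles replicate 4 the mean change of the mitotic kinesins was -1.93 instead of -2.10, and all 12 still passed.

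In these arrays the change of a gene moved with its level, so the kinesins were also read against genes of like brightness, a step chosen after the data had been seen. The mean over 10 arrays of the mitotic kinesins ran from 5.31 (KIF18A) to 8.73 (KIF2C), and 7213 genes lay in that range. Of these 58.4% were lower, 49.9% lay wholly lower without overlap and 14.2% were higher, with a median change of -0.75, against 12 of 12 lower and a median of -2.20 for the mitotic kinesins. Of the other kinesins 13 lay in the range, and 5 of them were lower and 2 higher, with a median of -0.25. In bins of 1 on the log2 scale, 10 of the 12 mitotic kinesins fell further than the lower quartile of all genes of their bin, and KIF22 and KIFC1 lay between the quartiles. Of the 29 others 6 lay below the lower quartile and 10 above the upper one.

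Loess normalization by level, which removes the trend between level and change from each array, reduced the falls. After it 18.3% of all genes were lower and 26.9% higher, and in the range of the mitotic kinesins 29.3% were lower and 31.8% higher, with a median of 0.0012. Of the mitotic kinesins 10 of 12 were still lower and none of the 12 was higher, with a median change of -1.37. KIF18A then changed by -2.70, KIF15 by -2.24 and KIF23 by -1.74 (limma adjusted p = 1.58e-05, 4.59e-05 and 6.2e-05). KIFC1 (-0.10, limma adjusted p = 0.786) and KIF18B (-0.97, limma adjusted p = 0.0523) did not pass. Of the other kinesins 5 were lower and 11 higher after loess, and their median turned to 0.31.

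**Figure D3:**
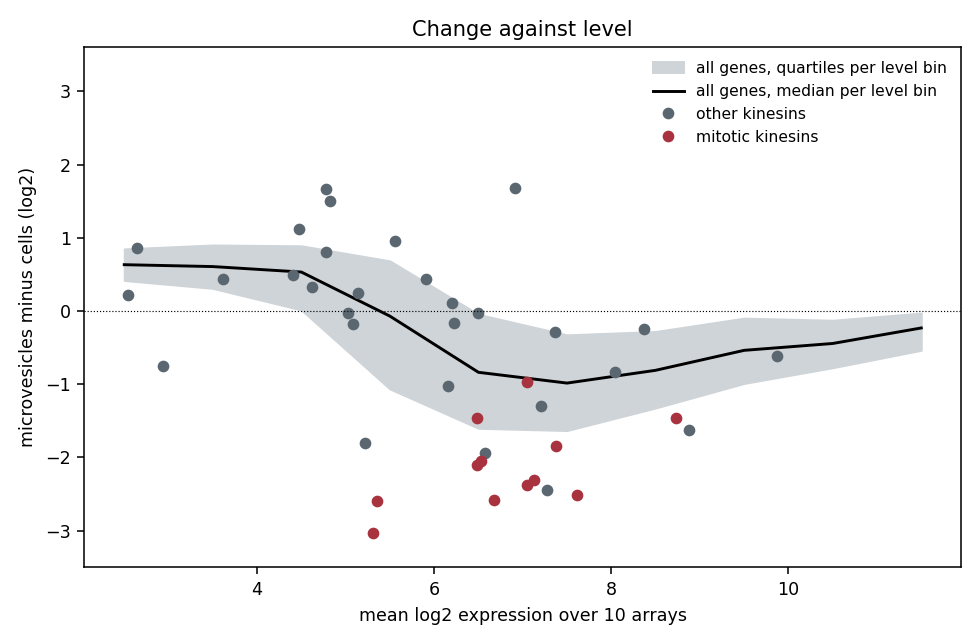
Change of each kinesin gene, microvesicles minus cells on the log2 scale (y axis), against its mean log2 expression over 10 arrays (x axis). The black line and grey band give the median and quartiles of all genes in bins of 1 in level, drawn at the bin centre, and 10 of the 12 red mitotic kinesins lie below the band.

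Promoter letters, which the choice of genes did not use, were read for both classes. Many genes of G2 and M phase carry a cell cycle genes homology region, with the core TTTGAA, bound by MuvB complexes that repress these genes in resting cells and drive them with MYBL2 or FOXM1, and CCAAT boxes bound by NF-Y often lie upstream of it. RefSeq promoter windows (GRCh38.p14, 250 bases before to 50 after each start) were at hand for 33 of the 41 genes, all 12 mitotic kinesins among them. The letters TTTGAA, on either strand, stood in a window of 9 of 12 mitotic kinesins and 1 of 21 others, KIF5B, against 15.2% of all 35116 windows and 18.2% of the 27305 genes with a window. CCAAT, on either strand, stood in 10 of 12 and 7 of 21, against 34.6% of all windows and 39.7% of genes. Both letter strings stood in 8 of 12 and 1 of 21, against 5.9% and 7.3%. In the kinesins no TTTGAA match overlapped a CCAAT match. These matches describe the letters in the windows, and binding was not measured.

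The 100 bases before the start are shown for the 5 mitotic kinesins that hold TTTGAA there, for KIF20A, which holds CCAAT without it, and for KIF3A and KIF1C, other kinesins that fell and rose. Each runs 5′ to 3′ on the strand of the gene, and capitals mark TTTGAA or CCAAT and, for the opposite strand, TTCAAA or ATTGG.
KIF11: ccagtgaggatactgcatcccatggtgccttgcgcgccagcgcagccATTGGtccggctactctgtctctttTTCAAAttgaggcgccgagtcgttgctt
KIF15: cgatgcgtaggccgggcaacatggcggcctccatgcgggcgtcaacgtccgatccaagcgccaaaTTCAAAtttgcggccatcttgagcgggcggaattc
KIF18A: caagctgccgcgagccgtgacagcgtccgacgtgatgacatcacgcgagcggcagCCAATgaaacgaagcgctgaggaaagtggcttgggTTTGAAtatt
KIF23: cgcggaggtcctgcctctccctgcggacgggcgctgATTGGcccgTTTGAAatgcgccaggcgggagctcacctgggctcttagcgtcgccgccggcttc
KIF4A: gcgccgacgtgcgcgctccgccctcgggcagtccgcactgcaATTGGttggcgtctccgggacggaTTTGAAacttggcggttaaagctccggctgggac
KIF20A: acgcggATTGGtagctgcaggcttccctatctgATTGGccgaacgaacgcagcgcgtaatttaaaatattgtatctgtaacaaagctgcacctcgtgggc
KIF3A: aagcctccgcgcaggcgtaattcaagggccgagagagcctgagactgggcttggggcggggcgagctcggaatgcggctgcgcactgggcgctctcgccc
KIF1C: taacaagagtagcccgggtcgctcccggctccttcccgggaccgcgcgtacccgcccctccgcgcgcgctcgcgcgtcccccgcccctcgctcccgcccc
The stretches lie at chr10:92593030-92593129 (+ strand), chr3:44761694-44761793 (+ strand), chr11:28108157-28108256 (- strand), chr15:69414249-69414348 (+ strand), chrX:70290004-70290103 (+ strand), chr5:138179012-138179111 (+ strand), chr5:132737547-132737646 (- strand) and chr17:4997850-4997949 (+ strand), in the order printed. In KIF11 the CCAAT and TTTGAA matches are 20 bases apart, in KIF4A 19 and in KIF18A 30. In KIF23 only 4 bases separate them. KIF14, KIF18B, KIF20B and KIFC1 have their TTTGAA after the start. Of the 3 mitotic kinesins without it, KIF2C holds neither string, and KIF20A and KIF22 hold CCAAT. Their changes of -1.46, -2.30 and -1.46 lie within the range of the 9 that hold TTTGAA.

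Among the transport and other kinesins, the largest fall was that of KIF21A, a motor known for restraining microtubule growth, which read 8.57, 8.89, 8.76, 8.12 and 8.13 in cells and 6.77, 6.37, 5.93, 5.17 and 6.0 in microvesicles. Its groups lay apart, and its change of -2.45 ± 0.27 (limma adjusted p = 9.12e-06) was of the size of those of the mitotic kinesins. KIF21B, its paralogue, ran from 6.50 to 6.84 in cells and 5.27 to 6.03 in microvesicles and changed by -1.02 ± 0.18 (limma adjusted p = 0.000346). KIF3A, a kinesin-2 motor of ciliary transport, read 7.05, 7.73, 7.79, 7.54 and 7.59 in cells and 5.75, 5.77, 5.57, 5.55 and 5.38 in microvesicles, and changed by -1.93 ± 0.17 (limma adjusted p = 1.81e-06). The microvesicle values of KIF3A lay within 0.39 of each other. KIF3B, the partner of KIF3A in the same motor, ran from 7.33 to 7.72 in cells and 6.52 to 7.94 in microvesicles and did not pass in its brightest probe set (change -0.29, 95% interval -0.81 to 0.23, limma adjusted p = 0.291), while its other probe set changed by -0.84 and passed (limma adjusted p = 0.00267). The third subunit of that motor, KIFAP3, changed by -0.84 ± 0.20 (limma adjusted p = 0.00277), and by -0.0077 after loess.

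Falls also occurred among kinesin-3 motors of endosomes and organelles. KIF16B, which binds early endosomes, ran from 5.76 to 6.51 in cells and 4.01 to 4.80 in microvesicles (change -1.80 ± 0.20, limma adjusted p = 1.01e-05), and 3 of its 5 microvesicle values were under the array median. Its other probe set changed by -0.66, with overlap, and did not pass (limma adjusted p = 0.0644). KIF1B, a carrier of mitochondria and synaptic vesicle precursors, ran from 7.65 to 7.99 in cells and 5.47 to 7.20 in microvesicles and changed by -1.30 ± 0.27 (limma adjusted p = 0.00113). KIF13A, a motor of recycling endosomes, ran from 8.35 to 8.54 and 7.05 to 7.97 and changed by -0.83 ± 0.19 (limma adjusted p = 0.00189). In their brightest probe sets all these groups lay apart. KIF2A, a microtubule depolymerase close to KIF2C, had means ± SD of 9.69 ± 0.17 over 5 cell arrays and 8.06 ± 0.37 over 5 microvesicle arrays, a change of -1.63 ± 0.19 (limma adjusted p = 1.49e-05). KIF5B, the widely expressed heavy chain of kinesin-1, read 10.09, 10.25, 10.35, 10.13 and 10.08 in cells and 9.47, 9.90, 9.96, 9.44 and 9.04 in microvesicles. It changed by -0.62 ± 0.19 (limma adjusted p = 0.0112), a fall of 1.54-fold with no overlap. KIF24, a centriole protein that holds back cilium formation, ran from 2.70 to 3.90 and 2.06 to 2.81, with overlap, and changed by -0.75 ± 0.22 (limma adjusted p = 0.00972). All values of KIF24 lay under the array median. After loess KIF21A (-1.58), KIF3A (-1.11), KIF16B (-1.52), KIF2A (-0.88) and KIF24 (-1.26) were lower, whereas KIF5B (0.00097), KIF13A (-0.0039), KIF1B (-0.44) and KIF21B (-0.29) did not pass.

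Of the 8 kinesins that were higher in microvesicles, KIF1C rose most and had values above the array median in all 10 arrays. KIF1C, a kinesin-3 motor of vesicle and mRNA transport, read 5.95, 6.09, 6.07, 6.22 and 6.02 in cells and 7.86, 7.98, 7.84, 7.76 and 7.30 in microvesicles. The groups did not overlap, and the rise was 1.68 ± 0.16 (3.2-fold, limma adjusted p = 2.99e-06), 2.53 after loess. KIF6, a kinesin-9 gene of motile cilia, read 4.22, 3.84, 3.63, 4.27 and 3.77 in cells and 4.81, 6.04, 5.98, 5.92 and 5.28 in microvesicles (change 1.66 ± 0.25, limma adjusted p = 9.23e-05). KIF5C, a neuronal kinesin-1 heavy chain, read 4.13, 3.89, 4.05, 4.14 and 4.18 in cells and 4.85, 5.71, 5.92, 5.63 and 5.77 in microvesicles (change 1.5 ± 0.20, limma adjusted p = 3.6e-05). In cells 3 of 5 values of KIF6 and 2 of 5 of KIF5C lay under the array median, so these genes rose from near the dim end of the scale. Among the rest, the cell and microvesicle arrays ran from 3.74 to 4.02 and 4.22 to 5.77 for KIF26B, 4.86 to 5.44 and 5.67 to 6.42 for KIFC3, 4.17 to 4.55 and 4.58 to 5.64 for KIF25 and 2.04 to 2.43 and 2.72 to 3.83 for KIF27, all without overlap. KIF26B, a kinesin whose motor domain lacks ATPase activity, changed by 1.12 ± 0.26, the minus-end motors KIFC3 and KIF25 by 0.96 ± 0.18 and 0.80 ± 0.20, and KIF27, a paralogue of the Hedgehog regulator KIF7, by 0.87 ± 0.21 (limma adjusted p = 0.00228, 0.000472, 0.00316 and 0.00303). The other 2 probe sets of KIF26B changed by 0.50 and 0.51 and did not pass, and all 5 of its cell values lay under the array median. KIF27 lay under the array median on all 10 arrays. KIF17, a kinesin-2 motor of dendrites and cilia, was at 0.50 ± 0.21 with a limma adjusted p of 0.0481, its groups overlapped, and it passed in only 2 of the 10 fits that left out 1 array. After loess KIF17 (0.31) and KIF27 (0.33) did not pass, and the other 6 were higher.

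**Figure D4:**
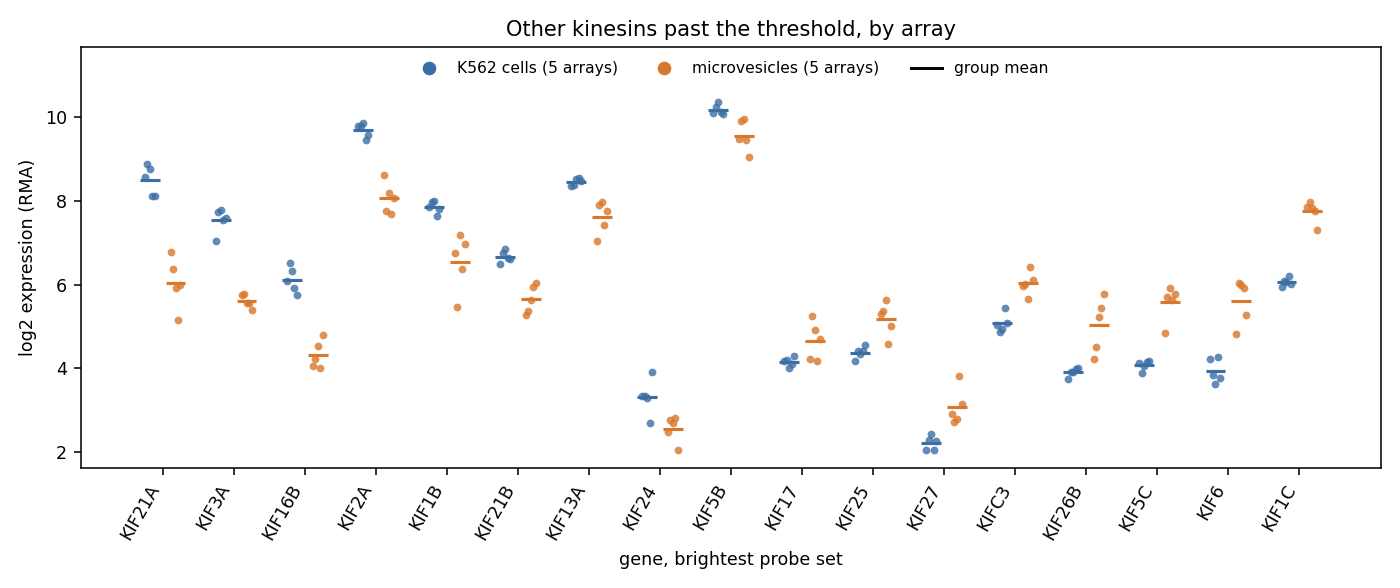
Log2 expression (y axis) of the 17 other kinesins past the threshold in each cell array (blue) and microvesicle array (orange), with lines for group means, ordered by change. The 9 on the left were lower in microvesicles and the 8 on the right higher.

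The 12 other kinesins that did not pass were KIF3B, KIF9, KIF3C, KIF13B, KIF5A, KIF1A, KIFC2, KIF2B, KIF12, KIF19, KIF26A and KIF7, with changes between -0.29 and 0.44. KIF1A, a carrier of synaptic vesicle precursors, was at -0.021 with a 95% interval of -0.41 to 0.37, and KIF5A, a neuronal kinesin-1, at -0.027 with -0.47 to 0.42. KIF9, a kinesin-9 gene, ran from 8.37 to 8.77 in cells and 7.71 to 8.55 in microvesicles, with an interval of -0.64 to 0.13. The intervals of KIF26A (-0.18 to 1.06) and KIF7 (-0.100 to 0.99) reach to a 2-fold rise or close to it. Without microvesicles replicate 1 both passed, at 0.76 and 0.70 (limma adjusted p = 0.000923 and 0.00207). The mean of the probe sets of KIF26A, which like KIF26B has an inactive motor domain, changed by 0.75 and passed (limma adjusted p = 0.00252). Changes and intervals were -0.17 (-0.68 to 0.33) for KIF3C, a neuronal kinesin-2, -0.16 (-0.69 to 0.38) for KIF13B, a kinesin-3 vesicle motor, 0.12 (-0.35 to 0.58) for KIFC2, 0.24 (-0.10 to 0.59) for KIF12 and 0.22 (-0.29 to 0.73) for KIF2B. In the brightest probe set none of these 12 genes had groups that lay apart. An interval that spans 0 does not show that a gene was alike in both. Dimmer probe sets of KIF1A (1.31), KIF26A (1.07) and KIF19 (0.91) passed as higher without overlap, from cell means of 2.74, 2.89 and 2.35. The other probe set of KIF3B (-0.84) was lower without overlap. Further probe sets of KIF9 (0.55 and 0.52) passed as higher, with overlap. After loess KIF1A (0.79), KIF7 (1.08), KIFC2 (0.86), KIF9 (0.55) and KIF12 (0.47) were higher past the threshold, of which KIF1A and KIF9 had been below 0 in the deposited values. With the mean of each gene's probe sets 11 other kinesins were higher instead of 8, KIF1A (0.59) and KIF19 (0.62) besides KIF26A (limma adjusted p = 0.000743 and 0.00244), and 10 were lower instead of 9, with KIF3B (-0.56, limma adjusted p = 0.016). KIF2B, a testis-enriched depolymerase, lay under the array median on all 10 arrays.

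Counts within families are small, and 31.2% of all genes were lower and 35.5% higher (58.4% and 14.2% in the level range of the mitotic kinesins). Calls in both directions occurred in kinesin-1, kinesin-2, kinesin-3, kinesin-4 and kinesin-14. In kinesin-1 KIF5B fell, KIF5C rose and KIF5A did not pass. In kinesin-3, 4 of 7 genes fell (KIF14, KIF16B, KIF1B and KIF13A), KIF1C rose and KIF1A and KIF13B did not pass. Of the kinesin-13 depolymerases KIF2A, KIF2C and KIF24 fell and KIF2B did not pass, and of the kinesin-14 minus-end motors KIFC1 fell while KIFC3 and KIF25 rose. In kinesin-8 both mitotic members fell, and KIF19, a regulator of cilium length, did not pass (0.33, 95% interval -0.048 to 0.70), though it did without microvesicles replicate 5 (0.42, limma adjusted p = 0.034).

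Other probe sets of the same genes were compared in a fit over all probe sets that are not controls, in which 27% were lower and 35.4% higher. Of 18 probe sets of mitotic kinesins 16 were lower and 2 higher, and of 67 of the other kinesins 20 were lower, 21 higher and 26 did not pass. KIF14 changed by -2.51 and -3.90 in its 2 probe sets, KIF23 by -2.58 and -1.75, KIF2C by -1.46 and -1.18 and KIF22 by -1.46 and -0.91. KIF20B was the exception, with -2.10 in the brightest probe set and rises of 0.64 and 1.24 in the other 2, which stood at 2.98 and 2.33 in cells, under the array median. The mean of its 3 probe sets changed by -0.074 and did not pass (limma adjusted p = 0.695). KIF1B and KIF13A too held probe sets that passed with opposite signs, which makes 3 of 26 kinesin genes with several probe sets, against 13.5% of such genes over the array. In KIF1B 3 probe sets fell by 1.30 to 1.5 and the dimmest rose by 0.68, and in KIF13A 4 of 6 fell and 1 rose (0.96). KIF5B fell in all 3 of its probe sets, by 0.62, 0.91 and 2.04. The rise of KIF1C rests mostly on 1 probe set (1.68), with 0.71 in a dim one and 0.12, which did not pass, in the third. Averaged over their probe sets, KIF1C changed by 0.83, KIF5C by 0.92, KIF6 by 1.05, KIF26B by 0.71 and KIF5B by -1.19, and all 5 passed.

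**Figure D5:**
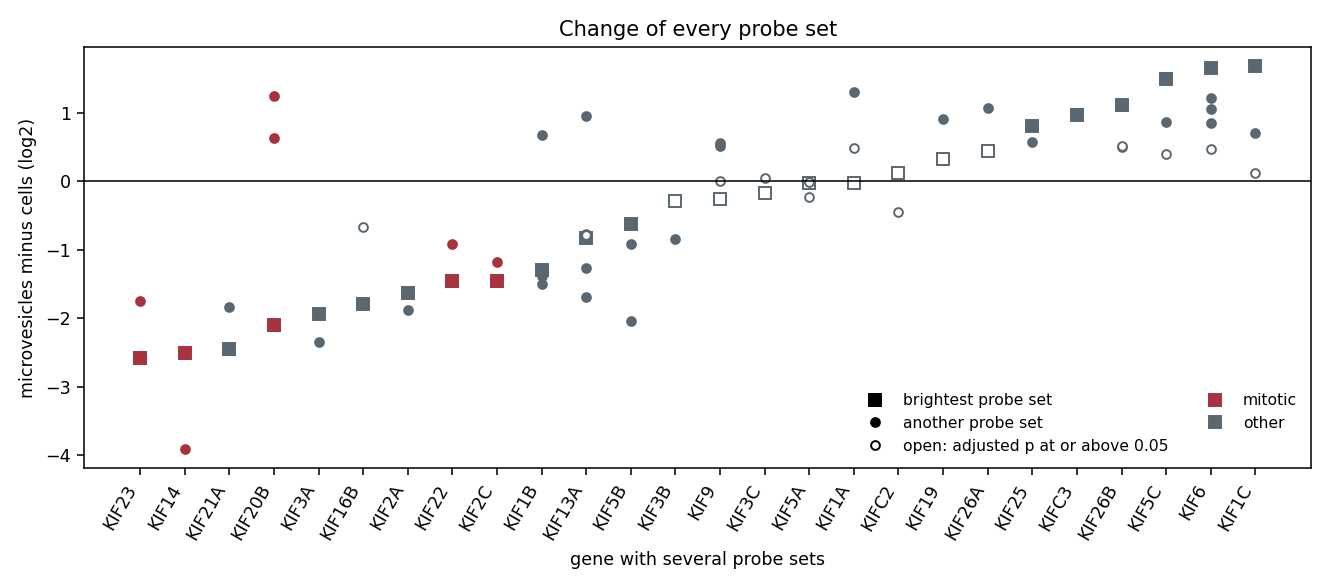
Change of every probe set, microvesicles minus cells on the log2 scale (y axis), for the 26 kinesin genes with several probe sets (x axis), squares for the brightest probe set and circles for the others. Open symbols did not pass an adjusted p of 0.05. The red probe sets of mitotic kinesins lie below 0 except for 2 of KIF20B.

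Genes that work with the mitotic kinesins were read from a list of 32, of which 31 were measured. Of these 25 fell, none of the 31 rose and 6 did not pass, with a median change of -1.22, against 31.2% of all genes lower, 35.5% higher and a median of 0.20. In the level range of the mitotic kinesins, which holds 15 of the 31, 58.4% of genes were lower, with a median of -0.75. After loess 16 of the 31 were lower and 3 higher, where 18.3% and 26.9% of all genes were. The spindle pole gene ASPM changed by -4.33 ± 0.27, the cytokinesis exchange factor ECT2 by -2.58 ± 0.23 and MKI67, a coat of mitotic chromosomes, by -2.55 ± 0.21 (limma adjusted p = 1.6e-07, 1.74e-06 and 1.1e-06). The mean of the 3 probe sets of ECT2 changed by -0.88. CENPE, the kinesin of the kinetochore, which the naming rule leaves out, changed by -2.27 ± 0.26 (limma adjusted p = 1.18e-05). RACGAP1, which binds KIF23, changed by -1.92 ± 0.22 and PRC1, which binds KIF4A, by -1.22 ± 0.22 (limma adjusted p = 1.29e-05 and 0.000349). The kinases AURKA (-0.71) and AURKB (-0.81) fell by less and stood at 0.036 and 0.049 after loess, and PLK1 did not pass (0.33, limma adjusted p = 0.104). Among 14 regulators of mitotic gene transcription 10 fell and 1 rose, with a median of -0.92. In the level range of the mitotic kinesins, which holds 10 of the 14, 58.4% of genes were lower and 14.2% higher. After loess 5 of the 14 were lower and 3 higher, where 29.3% and 31.8% of the genes in that range were. These counts are read only as a description of the list. FOXM1 changed by -1.08 ± 0.25 and the repressor gene RBL2 by -2.40 ± 0.16, MYBL2 did not pass (-0.29), and the rise was that of E2F4 (1.6 ± 0.16), a repressor subunit of the same complexes (limma adjusted p = 0.00213, 1.85e-07, 0.298 and 4.01e-06).

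Light chains and cargo adaptors of the transport kinesins had calls in both directions. Of 23 measured, 9 fell and 6 rose, with a median of -0.31, where 31.2% of all genes were lower and 35.5% higher. After loess 2 were lower and 8 higher, where 18.3% and 26.9% of all genes were. These counts are read only as a description of the list. KLC3, a kinesin light chain, rose by 1.98 ± 0.19, while the light chain gene KLC1 changed by -1.23 ± 0.17 (limma adjusted p = 2.8e-06 and 4.28e-05). The scaffold genes SPAG9 and MAPK8IP3 belong to 1 adaptor family and went opposite ways, -1.95 ± 0.21 and 1.17 ± 0.22 (limma adjusted p = 6.4e-06 and 0.000472). KIFBP, which binds and holds back several kinesins, KIF15 and KIF18A among them, changed by -1.93 ± 0.15 (limma adjusted p = 6.76e-07). Dynein and dynactin, the minus-end transport machinery, had 18 falls and 3 rises of 28 measured, with a median of -0.70. Of the 28, 14 lay in the level range of the mitotic kinesins, where 58.4% of genes were lower, with a median of -0.75. The rest were brighter or dimmer, so that share speaks to only part of the list. After loess 8 of the 28 were lower and 6 higher, where 18.3% and 26.9% of all genes were. In that range the shares were 29.3% and 31.8%. The adaptor genes HOOK3 and BICD1 changed by -2.80 ± 0.26 and -2.49 ± 0.28, and the heavy chain DYNC1H1 by -1.94 ± 0.21 (limma adjusted p = 2.23e-06, 1.04e-05 and 8.74e-06). These values rest on the brightest probe set, and the mean over all probe sets of the gene changed by -1.31 for HOOK3, -1.18 for BICD1 and -0.34 for DYNC1H1. Among the adaptors above it was 0.50 for MAPK8IP3 and 1.28 for KLC3.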

How the data were processed

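Total RNA of 5 K562 cell and 5 microvesicle preparations was measured on Affymetrix arrays. RMA gave the log2 values that the authors deposited, per the submitters' processing notes, and which version was run is not stated there. RMA usually makes the intensity distributions of arrays alike, but the deposited values differed between the groups. The SD over the probe sets of an array averaged 2.34 in cells and 1.94 in microvesicles. The array median averaged 4.10 and 4.26 (exact permutation test of group means, 2-sided, p = 0.00794 for each). The cause was not tested, and a different total amount of RNA cannot be read from such values. Gene symbols came from the platform annotation, updated through gene numbers, and a probe set had to carry exactly 1 symbol. Each gene was read from its brightest probe set over 10 arrays, without a filter on dim genes.

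The groups were compared in R 4.3.3 by lmFit and eBayes of limma 3.58.1, without a block and with Benjamini-Hochberg adjustment over all 19775 genes. The test was also run on simulated data with an equal SD in both groups and few changed genes. That check does not cover the wider spread of the microvesicle arrays or the many genes that changed here. Changes are microvesicles minus cells ± SE. All 41 kinesin genes were named, and of each other list up to 3 of the largest falls and rises, plus genes picked for their role after their values were seen. The members, lists and tests were chosen with earlier results of these data known. Classes of kinesins were compared by counts and medians without a test, since genes share arrays. The labels do not say whether samples of the same number share a culture, so p-values speak only to the scatter of these preparations, which may be partly technical, and the number of arrays limits the precision. Alternatives were the replicate block, 3 other scalings, a filter on dim genes, the mean of probe sets, a variance trend, array weights and leaving out each array. Promoter windows came from RefSeq.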

Additional observations from a re-analysis of the deposited data

Results flagged for a closer look

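Of 82 groups of 5 arrays, 2 for each kinesin gene, 5 held an array whose distance to the nearest of the others exceeded 0.71 of the range of the group, and chance gives about 1 in 20. KIF2C was 7.16 in microvesicles replicate 4, against 8.07 to 8.37 in the other 4. KIF26A was 2.55 in microvesicles replicate 1, against 3.85 to 4.30 in the others, and without that array its change was 0.76 and passed. KIF5C was 4.85 in microvesicles replicate 1, against 5.63 to 5.92. KIFC2 was 5.45 in microvesicles replicate 5, against 6.37 to 6.67. KIF9 was 8.77 in cells replicate 4, against 8.37 to 8.48 in the other cells.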

How the results depend on the processing

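The falls of the mitotic kinesins kept their direction under every alternative run, and all 12 passed in each fit that left out 1 array, with a median change between -2.38 and -2.0. Their number fell to 9 after a second quantile normalization, to 10 after loess by level and to 11 with probe sets of 1 gene averaged, and their median moved to -1.51 and -1.37 in the first pair. Of the other kinesins 5 were lower after quantile normalization and 5 after loess, against 9, and 5 of the 13 in the level range of the mitotic kinesins were lower. Their median of -0.021 became -0.18 with arrays centred on their median, -0.16 without dim genes, and above 0 after quantile normalization (0.41), after loess (0.31), with the mean of probe sets (0.21) and with array weights (0.066). Leaving out 1 array gave -0.063 to 0.081 and turned it positive without cells replicate 4 (0.059) or microvesicles replicate 2 (0.081), 4 (0.015) or 5 (0.0022). Of all genes 8500 passed after quantile normalization and 8289 of 11366 without dim genes, where fewer genes were tested, against 13179, and 11664 to 13411 without 1 array. The cause of the scaling differences was not tested.

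Signs of single genes turned after quantile normalization for KIF13A (0.027), KIF13B (0.55), KIF1A (0.75), KIF2B (-0.23), KIF3B (0.61), KIF5A (0.15) and KIF9 (0.55), and after loess for KIF13B (0.59), KIF1A (0.79), KIF2B (-0.33), KIF3B (0.57), KIF3C (0.022), KIF5A (0.14), KIF5B (0.00097) and KIF9 (0.55). With the mean of probe sets KIF1A (0.59), KIF9 (0.21) and KIFC2 (-0.17) turned, with median centring KIFC2 (-0.043) and with array weights KIF1A (0.066). Leaving out 1 array turned KIF1A without cells replicate 4 (0.059) or microvesicles replicate 4 (0.11; range -0.082 to 0.11), KIF3C without microvesicles replicate 5 (0.0022; range -0.39 to 0.0022) and KIF5A without microvesicles replicate 2 (0.16) or 4 (0.0043; range -0.13 to 0.16). With the replicate number as a block 12974 genes passed, and of the kinesins 21 were lower and 7 higher, where KIF17 was lost (limma adjusted p = 0.0539). Samples of the same number had correlations of their deviations of -0.028 to 0.12, and in 4 of 5 numbers the cells and microvesicles of 1 number correlated best with each other, a hint from the data and not from the design. Not every correlation was over 0.1 and no label ties the numbers to a culture, so the samples were not treated as pairs.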
